A study of Homo sapiens with 8 samples.

Results

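The comparison set OTX015 directly against panobinostat in NCH644 cells, using the 2 arrays titled OTX015 and the 2 arrays titled panobinostat, 4 of the 8 arrays of the series. NCH644 is a stem-like glioblastoma line, grown here as neurospheres in MG-43 medium. The OTX015 cells received OTX015 at 5 µM, the panobinostat cells received panobinostat at 5 µM, and total RNA was collected from both after 24 h. The remaining arrays were 2 of cells given both drugs at the same doses and 2 of cells given DMSO, the vehicle. DMSO levels are given below only to place the drug levels, with no test. The submitters describe the arrays of a group as biological duplicates without saying how the cultures were separated, so p-values measure only the spread between these samples. No gene was chosen for its values in this comparison by the rule itself, which takes all 22458 probe sets that carry exactly 1 gene symbol, 1 for each gene, on the log2 scale of the deposited values.

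Both drugs act on acetylated chromatin, from opposite ends. OTX015 blocks the bromodomains of the BET proteins, such as BRD2 and BRD3, which bind acetylated histone tails and bring the elongation factor P-TEFb to promoters and enhancers. Panobinostat blocks histone deacetylases (HDACs), the enzymes that take acetyl groups off histones and other proteins. BET inhibitors are known for lowering MYC and for raising HEXIM1, and HDAC inhibitors for raising CDKN1A, metallothionein genes and many genes that are otherwise silent in the cell type.

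SOX2 and NES, markers of the line, were measured well above background under both drugs. SOX2 read 10.65 and 10.64 in the OTX015 arrays and 7.95 and 8.02 in the panobinostat arrays, and NES, which encodes the progenitor filament nestin, read 9.25 and 9.40 in the OTX015 arrays and 7.55 and 7.77 in the panobinostat arrays. Olfactory receptor genes, which these cells are not expected to use, gave the background: 95% of the group means of 354 such genes lay under 3.03. A gene whose dimmer drug averaged under that level is given as at least N-fold, the brighter mean against 3.03. All differences below are OTX015 minus panobinostat on the log2 scale ± SE from limma (n = 2 arrays in each group), so a positive value means a higher level under OTX015. A gene was called where its limma p, adjusted by Benjamini-Hochberg over all 22458 genes, was under 0.05.

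The drugs left the cells far apart. Of 22458 genes, 6582 (29.3%) were called, 2979 (13.3%) higher and 3603 (16%) lower in the OTX015 cells. The counts of each list below are to be read beside these shares of 13.3% and 16%. Both OTX015 arrays lay beyond both panobinostat arrays for all 6582 called genes, an order that 7427 genes (33.1%) had with OTX015 higher and 6890 (30.7%) with OTX015 lower, called or not. The called difference had a median size of 0.87. Called differences over 2-fold were found in 1145 genes (5.1%) higher and 1435 genes (6.39%) lower in the OTX015 cells, and those over 8-fold in 36 genes (0.16%) higher and 87 genes (0.387%) lower. The largest fitted fold was 22.9 on the higher side and 142 on the lower side, the second for a gene under background with OTX015.

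The direction of the split depended on scale. OTX015 array medians were 3.882 and 3.869 and panobinostat medians 4.004 and 4.002, and centring every array on its median moved the median difference of all genes to 0.16, against 0.03 as deposited. With that centring 4088 genes were called higher and 2776 lower, so 59.6% of the calls were higher against 45.3% as deposited. The count of calls itself stayed near, at 6864. Direction is given below for single genes and for lists whose median kept its sign in all alternatives. Other lists have only their counts of calls on each side.

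**Figure D1:**
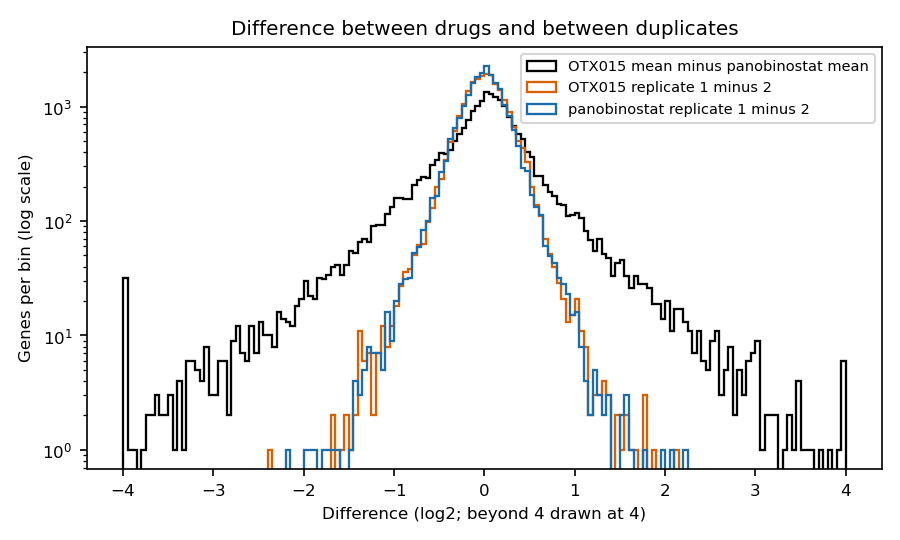
Genes per bin (log scale) by size of difference (log2) for the OTX015 mean minus the panobinostat mean (black), for OTX015 replicate 1 minus replicate 2 (orange) and for panobinostat replicate 1 minus replicate 2 (blue). The duplicates differed by a median of 0.16 in OTX015 and 0.152 in panobinostat, and the drug means by a median of 0.276, with 2611 genes past 2-fold.

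The duplicates were close enough for most of these differences to be resolved. They correlated across genes at r = 0.9928 in OTX015 and 0.993 in panobinostat, and 141 genes differed over 2-fold between the OTX015 arrays and 127 between the panobinostat arrays. The first principal component of the 4 arrays separated the drugs and held 86.4% of the variance. The 95% interval of the difference lay wholly within 2-fold for 16655 genes (74.2%), and 7867 genes (35%) averaged under the background level with both drugs. Of the 6582 called genes, 1054 (4.69% of all genes tested) had a dimmer drug that averaged under background.

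**Figure D2:**
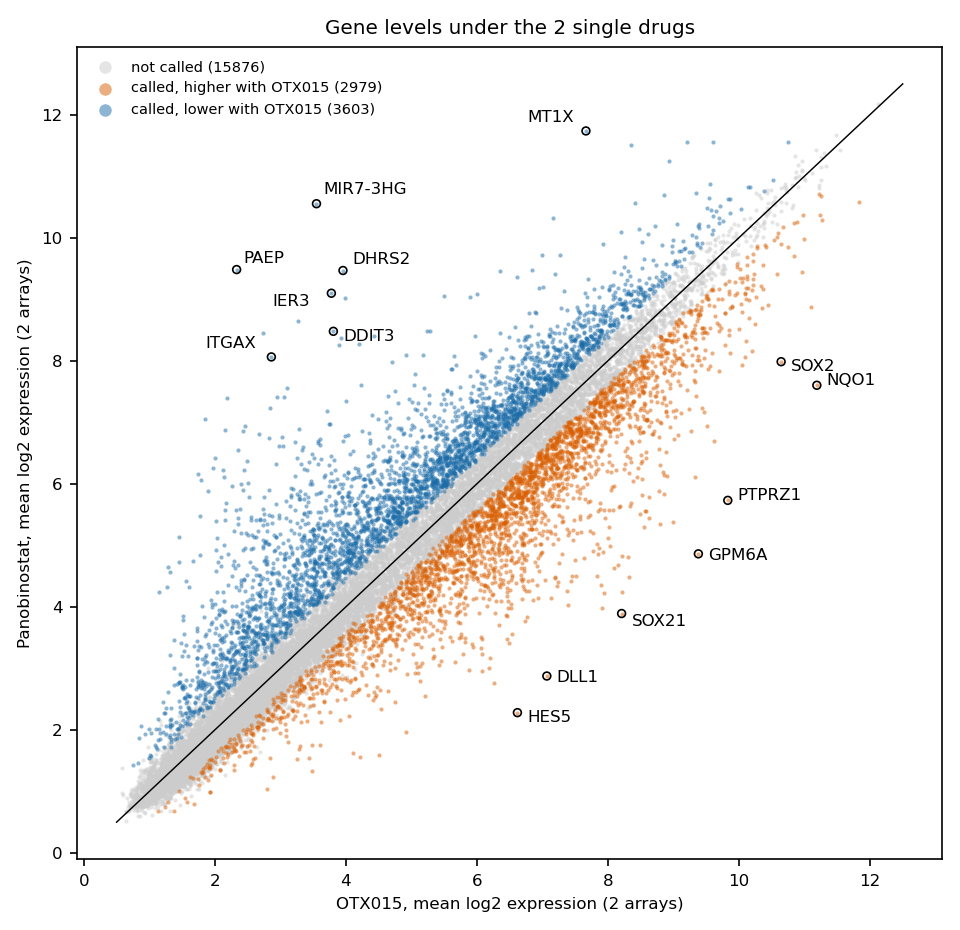
Mean log2 level of each of the 22458 genes in the OTX015 arrays (horizontal) and the panobinostat arrays (vertical), coloured by call, with the line of equal level in black. GPM6A, DLL1 and HES5 are among the genes far below the line, and PAEP, MIR7-3HG and DHRS2 among those far above it.

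Of the 12 named genes on the OTX015-high side, 6 are known from neural progenitors, glia or Notch signalling. GPM6A, a neural membrane glycoprotein, read 9.38 and 9.38 in the OTX015 arrays and 4.71 and 5.01 in the panobinostat arrays. Its difference of 4.52 ± 0.17, 22.9-fold, was the largest among genes higher in OTX015 (adjusted p = 3.07e-06). HES5, a repressor induced by Notch signalling, read 6.48 and 6.75 in the OTX015 arrays and 2.54 and 2.02 in the panobinostat arrays. The panobinostat level was under background, so HES5 was at least 12.05-fold higher in OTX015 (adjusted p = 2.66e-05). DLL1, a ligand of Notch receptors, read 7.13 and 7.001 in the OTX015 arrays and 3.10 and 2.65 in the panobinostat arrays, at least 16.4-fold higher in OTX015 (adjusted p = 4.71e-06). SOX21, a transcription factor of neural progenitors, differed by 4.32 ± 0.18, and PTPRZ1, a receptor phosphatase of glial progenitors, by 4.10 ± 0.12. NKX2-2, a homeobox factor of oligodendrocyte precursors, differed by 3.85 ± 0.23.

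The other 6 came from varied families. KCNE4, a potassium channel subunit, differed by 3.97 ± 0.23, the collagen gene COL19A1 by 3.71 ± 0.13, TECRL by 3.94 ± 0.17 and the HMG-box factor gene TOX by 3.61 ± 0.18. NQO1, a quinone reductase induced by NRF2, read 11.30 and 11.08 in the OTX015 arrays and 7.69 and 7.51 in the panobinostat arrays, a difference of 3.59 ± 0.17 (12.02-fold, adjusted p = 6.72e-06). The cyclin A2 gene CCNA2 is taken up with the cell cycle below. Arrays that did not overlap between the drugs were a condition for naming the 12 genes.

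The OTX015-low end held genes at or near background with OTX015 and well above it with panobinostat. PAEP, which encodes the secreted lipocalin glycodelin, read 2.41 and 2.25 in the OTX015 arrays and 9.55 and 9.42 in the panobinostat arrays. The OTX015 level was under background, which makes PAEP at least 87.7-fold lower in OTX015 (adjusted p = 1.01e-07). DHRS2, a short-chain dehydrogenase long known as an HDAC inhibitor response gene, read 3.73 and 4.18 in the OTX015 arrays and 9.41 and 9.53 in the panobinostat arrays, a difference of -5.51 ± 0.27. ENPP2, the lysophosphatidic acid producing enzyme autotaxin, read 3.15 and 3.40 in the OTX015 arrays and 8.54 and 8.74 in the panobinostat arrays, a difference of -5.37 ± 0.16. Arrays without overlap between the drugs were likewise a condition for naming genes on this side.

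The named genes on that side also included the following. ITGAX, the leukocyte integrin CD11c, was at least 32.8-fold lower in OTX015, GTSF1, a germline factor, at least 16.2-fold, and SSX1, a cancer-testis antigen, at least 14.3-fold. HPCAL4, a neuronal calcium sensor, was at least 20.8-fold lower and the transporter gene SLC12A8 at least 14.98-fold lower. The immediate early gene IER3 differed by -5.32 ± 0.36, the small GTPase gene GEM by -5.03 ± 0.24, the stress-induced transcription factor gene DDIT3 by -4.67 ± 0.15 and the melatonin-related receptor gene GPR50 by -4.44 ± 0.29. IER3 had the widest duplicates of these, with 4.27 and 3.29 in the OTX015 arrays and 9.40 and 8.80 in the panobinostat arrays.

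**Figure D3:**
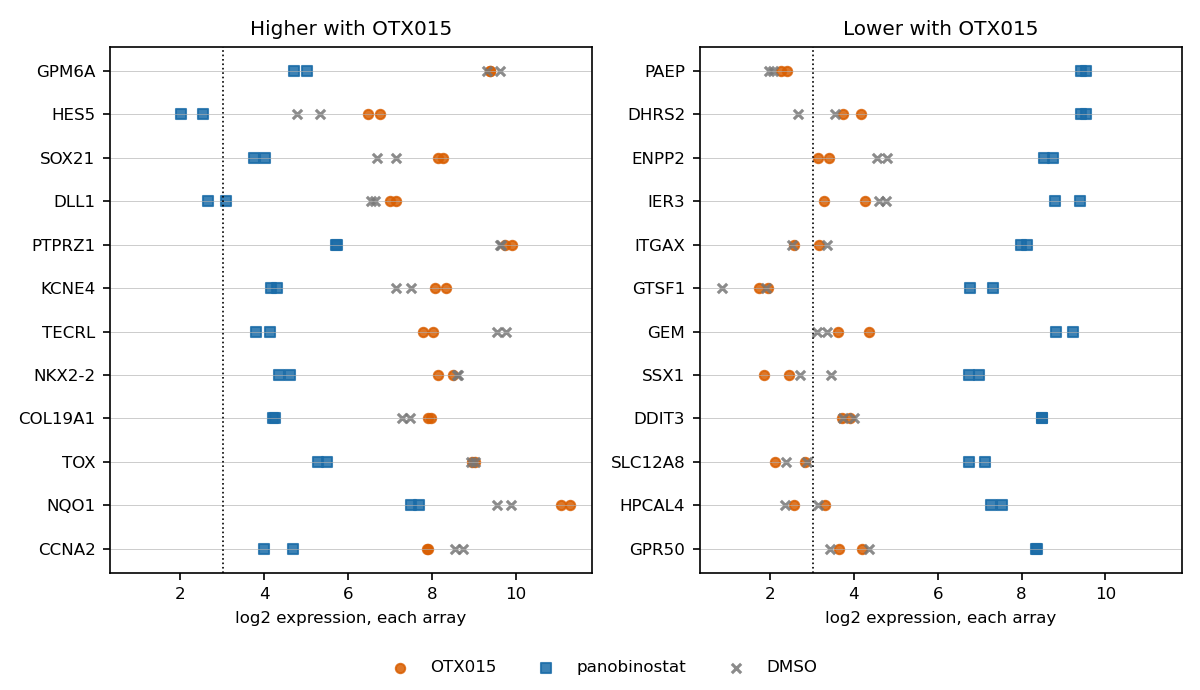
Log2 level in each array for 12 genes on each side, those with the largest called differences once small, antisense, LINC and uncharacterised RNAs and the USP17L and RFPL4 multicopy families are left out, with OTX015 (orange circles), panobinostat (blue squares) and DMSO (grey crosses), and the background of 3.03 as a dotted line. In the left panel the DMSO points lie nearer to OTX015 than to panobinostat for all 12 genes, and the right panel shows the same for its 12 genes.

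All 58 measured genes of the G2/M and mitosis list were called higher in OTX015, beside 13.3% of all genes, with a median difference of 2.21 beside 0.03 over all genes. The lowest member was the checkpoint gene BUB3 at 0.51, and the highest was CCNA2. CCNA2, which drives S phase and entry into mitosis, read 7.91 and 7.88 in the OTX015 arrays and 4.01 and 4.70 in the panobinostat arrays, a difference of 3.54 ± 0.23 (11.7-fold, adjusted p = 1.83e-05). CDC20, an activator of the anaphase-promoting complex, read 8.17 and 8.26 in the OTX015 arrays and 4.38 and 5.27 in the panobinostat arrays, a difference of 3.39 ± 0.26. PLK1, a mitotic kinase, differed by 3.19 ± 0.21, and MKI67, the proliferation antigen Ki-67, by 3.02 ± 0.14. NUF2, a kinetochore protein, was at least 8.27-fold higher. In bulk RNA fewer cycling cells and less of these transcripts in each cell cannot be told apart.

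Many promoters of the mitosis genes hold the same short sequence elements, a property of the list that does not depend on the arrays. Among the 16038 measured genes with a RefSeq promoter (GRCh38.p14, 250 bases before to 50 after the gene start, both strands searched), TTTGAA, the core of the cell cycle genes homology region, was found in 35 of 50 G2/M promoters (70.0%), against 12.4% of all promoters and 1 of 40 G1/S promoters (2.5%). CCAAT, the core of the NF-Y box, was found in 72.0% of the G2/M promoters, 57.5% of the G1/S promoters and 36.2% of all. It was also found in 53.6% of promoters of genes called over 8-fold higher in OTX015 and 53.3% of those over 8-fold lower. The motifs were counted separately whether or not they overlapped. The 120 bases before the gene start are shown for the mitosis genes with the largest differences, on the strand of the gene, with TTTGAA in capitals. They are chr1:43358861-43358980 (plus strand) for CDC20, chr16:23678769-23678888 (plus strand) for PLK1 and chr4:121823884-121824003 (minus strand) for CCNA2.
CDC20: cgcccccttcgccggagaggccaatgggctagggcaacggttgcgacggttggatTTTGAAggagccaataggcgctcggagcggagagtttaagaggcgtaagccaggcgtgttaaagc
PLK1: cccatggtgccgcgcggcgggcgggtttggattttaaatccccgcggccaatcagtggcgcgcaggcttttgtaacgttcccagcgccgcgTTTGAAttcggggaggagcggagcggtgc
CCNA2: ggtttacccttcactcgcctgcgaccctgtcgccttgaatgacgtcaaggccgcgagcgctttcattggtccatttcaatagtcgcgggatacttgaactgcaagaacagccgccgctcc
The match shown starts at -65 in CDC20 and at -29 in PLK1, counted from the gene start, and these letters are not in the CCNA2 window, whose difference was the largest of the list. A match is a description of the sequence and not evidence of a bound site.

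Genes of S phase and of its repair machinery followed with smaller differences. Of 48 G1/S and DNA replication genes, 35 were called higher and 3 lower (median 0.66). With only the 4 single-drug arrays in the fit 32 were called higher and 3 lower, and with median centring 36 and 1. TYMS, which makes thymidylate for DNA synthesis, read 9.33 and 9.34 in the OTX015 arrays and 6.001 and 6.23 in the panobinostat arrays, a difference of 3.22 ± 0.13. RRM2, the regulated subunit of ribonucleotide reductase, differed by 2.92 ± 0.18, the origin recognition gene ORC6 by 2.09 ± 0.19 and the phosphatase gene CDC25A by 1.64 ± 0.15. Of 26 homologous recombination and Fanconi genes, 15 were called higher and 2 lower (median 0.58), led by FANCI at 1.99 ± 0.18 and the exonuclease gene EXO1 at 1.58 ± 0.14.

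The regulators of the G1 checkpoint did not share 1 direction. Of 11 genes for D cyclins, CDK4/6 and the RB and E2F family, 7 were called higher and 2 lower (median 0.64). Median centring gave 7 higher and 0 lower, and quantile normalization 6 and 2. CCND1 read 8.08 and 7.94 in the OTX015 arrays and 5.09 and 5.49 in the panobinostat arrays, a difference of 2.72 ± 0.17, and CCND2 differed by 2.20 ± 0.13 and E2F3 by 1.91 ± 0.14. CDKN1A, which encodes the CDK inhibitor p21, read 6.14 and 6.10 in the OTX015 arrays, 7.46 and 7.33 in the panobinostat arrays and 3.96 and 3.90 in the DMSO arrays, so its level with OTX015 lay between the others and was 2.43-fold under panobinostat (-1.28 ± 0.13, adjusted p = 0.000178). CDKN1B, which encodes the related inhibitor p27, went the other way, with 7.77 and 7.70 in the OTX015 arrays and 5.81 and 5.65 in the panobinostat arrays (2.01 ± 0.14). CDKN2B was called lower at -0.52 ± 0.17, a call lost in 9 of 12 alternatives.

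MYC and the genes of the drugs' own targets differed between the arms. MYC read 8.08 and 8.04 in the OTX015 arrays, 6.32 and 6.31 in the panobinostat arrays and 9.15 and 9.12 in the DMSO arrays. Its level was thus 3.36-fold higher with the BET inhibitor than with the HDAC inhibitor (1.75 ± 0.12, adjusted p = 2.21e-05). MYCN was not called, at 0.41 with a 95% interval of 0.05 to 0.76. In the MYC, MAX and MXD network 4 of 13 genes were called higher and 3 lower, the MYC antagonist MXD1 among the lower ones at -1.35 ± 0.16. Ribosome biogenesis is a process that MYC is known to drive. Of its 43 genes, 8 were called higher and 6 lower (18.6% and 14%, beside 13.3% and 16% of all genes). RRP9 had the largest called difference, at -0.997 ± 0.14. The pseudouridine synthase gene DKC1 had the largest on the higher side, at 0.91 ± 0.12. Leaving out any 1 of the 4 arrays cut the higher count in that list to between 2 and 4 and the lower count to between 1 and 4, and median centring gave 11 higher and 2 lower.

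Among BET genes, BRD2 read 10.09 and 10.004 in the OTX015 arrays and 9.35 and 9.21 in the panobinostat arrays (0.77 ± 0.13), and BRD3 was 1.97-fold higher (0.98 ± 0.13). HEXIM1, the inhibitor of P-TEFb that serves as a marker of BET inhibition, read 7.39 and 7.195 in the OTX015 arrays, 6.41 and 6.42 in the panobinostat arrays and 5.87 and 5.61 in the DMSO arrays, a difference between the drugs of 0.88 ± 0.17 (adjusted p = 0.00442). SERPINI1, which has been reported to respond to BET inhibitors, was 4.29-fold lower with OTX015 than with panobinostat (-2.10 ± 0.17). It read 4.69 and 4.62 in the OTX015 arrays, 6.60 and 6.92 in the panobinostat arrays and 2.23 and 2.54 in the DMSO arrays. MEPCE, which caps the 7SK RNA that holds P-TEFb inactive, was higher at 1.49 ± 0.13.

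Histone deacetylase genes were lower or not called. Of 11, 0 were called higher and 5 lower (45.5%, beside 16% of all genes). HDAC1 read 7.68 and 7.93 in the OTX015 arrays and 8.79 and 8.77 in the panobinostat arrays (-0.97 ± 0.14), HDAC3 differed by -0.996 ± 0.12 and HDAC5 by -1.38 ± 0.15. HDAC2 was not called, at 0.20 with a 95% interval from -0.08 to 0.47. After median centring of the arrays, 2 members were called higher and 5 remained the count on the lower side. Of 43 genes for enzymes that methylate, demethylate or acetylate chromatin, 17 were called higher and 4 lower (median 0.31). The list holds 3 DNA methyltransferase genes, of which DNMT1 (0.96 ± 0.12) and DNMT3A (1.07 ± 0.18) were among the 17. The H3K4 methyltransferase gene SETD1B read 6.58 and 6.47 in the OTX015 arrays and 3.94 and 4.15 in the panobinostat arrays (2.48 ± 0.15), and SUV39H1, an H3K9 methyltransferase, differed by 1.69 ± 0.14. The lower count of 4 in that list was 1 without OTX015 replicate 2 or without panobinostat replicate 1.

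Among 31 linker and core histone genes, 10 were called higher and 3 lower, and 12 averaged under background with both drugs. H2AZ1, a replication-independent variant, read 10.11 and 10.06 in the OTX015 arrays and 8.06 and 8.07 in the panobinostat arrays (2.02 ± 0.12). H4C5 differed by 1.86 ± 0.16 and H3C10 by -1.97 ± 0.34, with OTX015 duplicates of 2.74 and 4.02. Genes of the histone clusters are near-identical copies, and how far their probe sets share signal was not tested.

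Progenitor genes were mostly higher with OTX015, but not all of them. Of 32 measured glioma stem and neural progenitor genes, 19 were called higher and 6 lower (59.4% and 18.8%, median 0.77). SOX2, the stem cell factor whose values open the results, differed by 2.66 ± 0.12 (6.32-fold, adjusted p = 5.86e-06). OLIG1 read 8.06 and 8.24 in the OTX015 arrays and 4.80 and 4.56 in the panobinostat arrays (3.47 ± 0.17). Its neighbour in function OLIG2 moved the opposite way by a small amount, with 9.17 and 9.53 in the OTX015 arrays and 10.05 and 9.98 in the panobinostat arrays (-0.67 ± 0.15, adjusted p = 0.0104). That call was lost without OTX015 replicate 1 and without panobinostat replicate 1, where the adjusted p was 0.0738 and 0.0631. NES was higher at 1.67 ± 0.21 and PROM1, the CD133 antigen, at 1.04 ± 0.18. The lower count of 6 was 3 without OTX015 replicate 2 or without panobinostat replicate 1.

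Of 19 oligodendrocyte lineage genes, 8 were called higher and 3 lower. SOX10, a master factor of the lineage, read 7.30 and 7.48 in the OTX015 arrays, 4.16 and 3.91 in the panobinostat arrays and 9.06 and 9.26 in the DMSO arrays (OTX015 minus panobinostat 3.36 ± 0.21). MBP, a myelin protein gene, went the other way, with 1.98 and 1.48 in the OTX015 arrays, under background, and 3.34 and 3.55 in the panobinostat arrays, at least 1.34-fold lower. In the Notch pathway 5 of 23 genes were called higher and 6 lower, beside 13.3% and 16% of all genes. Beside HES5 and DLL1, the coactivator gene MAML2 was higher at 2.35 ± 0.18 and its relative MAML3 lower at -1.47 ± 0.20. Median centring raised the Notch higher count to 9. Among 16 astrocyte genes, 1 was called higher, the glutamate transporter gene SLC1A3 at 1.24 ± 0.16, and 5 lower, including CLU, which encodes the chaperone clusterin, at -2.36 ± 0.13. Median centring, and leaving out any 1 of the 4 arrays, each cut the lower count to 3.

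Of 44 neuronal and synaptic genes, 24 were called lower with OTX015, 3 higher and 17 not at all (54.5% lower and 6.82% higher, beside 16% and 13.3% of all genes, median -0.68). SYN1, a synaptic vesicle protein gene, read 6.004 and 5.80 in the OTX015 arrays, 9.13 and 8.95 in the panobinostat arrays and 4.88 and 4.48 in the DMSO arrays (OTX015 minus panobinostat -3.14 ± 0.17, 8.80-fold). SNCB, which encodes beta-synuclein, differed by -2.91 ± 0.16. The stathmin genes STMN2 and STMN4, which encode microtubule regulators of growing neurites, averaged under background with OTX015 and were at least 5.83-fold and at least 4.98-fold lower. The 3 called higher were MAP2 at 1.17 ± 0.13 and MAPT at 0.43 ± 0.13, which encode microtubule-associated proteins of neurons, and the stathmin gene STMN3 at 0.65 ± 0.15. The higher count was 5 with median centring, with an intensity trend and with the replicate block, and 1 or 2 when single arrays were left out.

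Genes of motile cilia, the beating cilia of ependymal and airway cells, were also more often called lower than higher. Of 30, 12 were called lower and 1 higher, beside 16% and 13.3% of all genes, and 10 were under background with both drugs. RSPH4A, a radial spoke protein gene, read 3.30 and 3.35 in the OTX015 arrays and 6.27 and 6.36 in the panobinostat arrays (-2.99 ± 0.19), and CCDC39, an axoneme ruler protein gene, was at least 3.06-fold lower. FOXJ1, the master factor of motile cilia, differed by 0.01 and was named after its value was seen. The lower count was 7 without OTX015 replicate 2 or without panobinostat replicate 1. Of 34 voltage-gated and potassium channel genes, 9 were called lower and 2 higher, beside the same shares of all genes. The sodium channel subunit gene SCN3B differed by -2.68 ± 0.13. With median centring and with quantile normalization the channel list had 4 called higher.

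Axon guidance genes divided by molecule. Of 37, 12 were called higher and 5 lower. UNC5C, a netrin receptor gene, read 6.07 and 6.44 in the OTX015 arrays and 2.94 and 2.57 in the panobinostat arrays, at least 9.36-fold higher. The semaphorin genes SEMA3A and SEMA3C, which encode secreted guidance cues, went apart, at 2.55 ± 0.19 and -1.90 ± 0.14. EFNA3, an ephrin ligand gene, was lower at -2.80 ± 0.18.

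Immediate early genes, which growth factor and stress signals switch on within minutes, numbered 23, of which 16 were called lower with OTX015 and 1 higher (69.6% and 4.35%, beside 16% and 13.3% of all genes, median -0.86). FOS read 7.41 and 6.61 in the OTX015 arrays, 9.40 and 8.99 in the panobinostat arrays and 5.73 and 5.30 in the DMSO arrays, and EGR1 read 9.27 and 8.46 in the OTX015 arrays, 10.83 and 10.54 in the panobinostat arrays and 6.21 and 6.51 in the DMSO arrays. Both genes thus lay in the same order, with DMSO lowest. FOS differed between the drugs by -2.19 ± 0.28, EGR1 by -1.83 ± 0.25, EGR3 by -2.42 ± 0.18 and the neuronal activity gene ARC by -1.95 ± 0.16. FOSL1 was called at -1.22 ± 0.36 and lost its call in 5 of 12 alternatives.

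Feedback genes of the ERK pathway were called in both directions. Of 16, 9 were called higher and 4 lower (median 0.70), and the higher count was 5 without OTX015 replicate 1. DUSP6, the phosphatase that acts on ERK in the cytoplasm, read 10.20 and 9.90 in the OTX015 arrays, 8.06 and 7.82 in the panobinostat arrays and 8.07 and 7.83 in the DMSO arrays (OTX015 minus panobinostat 2.11 ± 0.16, 4.32-fold). DUSP1, a nuclear phosphatase of the stress kinases and itself an immediate early gene, read 7.05 and 6.93 in the OTX015 arrays and 9.81 and 9.63 in the panobinostat arrays (-2.73 ± 0.13). DUSP5 differed by -2.48 ± 0.23 and PHLDA1 by 1.80 ± 0.14.

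AP-1, the dimer of FOS and JUN proteins, binds TGANTCA. These letters stood in 10 of 60 promoters (16.7%) of genes called over 8-fold lower in OTX015 that had a RefSeq promoter, in 1 of 28 (3.57%) of those over 8-fold higher and in 6.14% of all 16038 promoters. TATAAA was found in 18.3% of the first set, 10.7% of the second and 9.49% of all. PAEP, the gene with the largest difference, has 1 match, starting at -95, and its window (GRCh38.p14, chr9:135561636-135561755, plus strand) is shown with TGANTCA in capitals.
PAEP: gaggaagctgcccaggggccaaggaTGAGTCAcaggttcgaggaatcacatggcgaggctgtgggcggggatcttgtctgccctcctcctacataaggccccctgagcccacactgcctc
Over the larger set called over 2-fold lower, 6.96% of 1092 promoters held TGANTCA, close to the share in all promoters.

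Of 10 genes for metallothioneins, small proteins that bind zinc and copper, 3 were called lower and 0 higher by limma. Over all genes the shares were 16% and 13.3%. The list of 12 also holds MTF1 and the zinc exporter gene SLC30A1 (-0.62 ± 0.14), both called lower, and with median centring 1 of the 12 was called higher. MT1X read 7.78 and 7.55 in the OTX015 arrays and 11.75 and 11.72 in the panobinostat arrays (-4.07 ± 0.14, 16.8-fold, adjusted p = 1.73e-06). MT2A read 5.38 and 5.62 in the OTX015 arrays and 9.27 and 8.84 in the panobinostat arrays (-3.55 ± 0.18), and MT1F differed by -3.47 ± 0.31. MTF1, the zinc-sensing factor that activates them, differed by -1.07 ± 0.12. In the same list 4 genes averaged under background with both drugs, and cross-hybridisation between these near-identical genes was not tested. The letters of the metal response element core, TGCNCNC, are common, present in 60.0% of all promoters with a median of 1 match, whereas the MT2A promoter held 8 and the MT1X promoter 4. The 120 bases before the gene start hold 3 and 2 of them in capitals, at chr16:56608464-56608583 for MT2A and chr16:56682350-56682469 for MT1X, both on the plus strand of GRCh38.p14.
MT2A: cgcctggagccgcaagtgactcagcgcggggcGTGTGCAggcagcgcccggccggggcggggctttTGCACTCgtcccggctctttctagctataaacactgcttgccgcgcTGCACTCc
MT1X: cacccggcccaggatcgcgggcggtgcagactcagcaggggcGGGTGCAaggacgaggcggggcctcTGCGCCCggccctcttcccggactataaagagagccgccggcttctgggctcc
More widely, of 18 genes known to rise with HDAC inhibitors, a list that includes these 3 metallothionein genes, 9 were called lower in OTX015 and 1 higher.

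Among 20 integrated stress response genes, 4 were called higher and 5 lower, and ATF4, the transcription factor at the centre of the response, was at 0.01 with a 95% interval from -0.29 to 0.31. DDIT3, the apoptosis-linked factor CHOP that ATF4 activates, read 3.91 and 3.71 in the OTX015 arrays, 8.48 and 8.48 in the panobinostat arrays and 3.74 and 4.01 in the DMSO arrays, 25.4-fold lower in OTX015 than in panobinostat. TRIB3, a pseudokinase induced by DDIT3 and ATF4, read 5.26 and 5.21 in the OTX015 arrays, 8.54 and 8.42 in the panobinostat arrays and 6.74 and 6.88 in the DMSO arrays (OTX015 minus panobinostat -3.25 ± 0.16). The cystine transporter gene SLC7A11 was higher at 1.25 ± 0.17. The higher count of 4 was 2 without panobinostat replicate 1.

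Of 22 NRF2 targets, the oxidant defence genes, 8 were called higher and 5 lower (36.4% and 22.7%). NQO1 stood at 3.59 while SRXN1, sulfiredoxin, read 8.63 and 8.20 in the OTX015 arrays and 10.63 and 10.50 in the panobinostat arrays (-2.15 ± 0.16), and HMOX1, heme oxygenase, differed by -1.49 ± 0.21. Relative to the DMSO arrays, with 9.89 and 9.55 for NQO1 and 6.91 and 6.82 for SRXN1, OTX015 levels of both lay higher and panobinostat levels lay lower for NQO1 and higher for SRXN1. Of 23 p53 targets 5 were called higher and 5 lower (21.7% each, beside 13.3% and 16% of all genes). TP53I3, a quinone oxidoreductase gene, read 8.002 and 7.73 in the OTX015 arrays and 4.98 and 4.92 in the panobinostat arrays (2.91 ± 0.17), and GDF15, a stress cytokine gene, read 4.30 and 4.48 in the OTX015 arrays and 7.12 and 7.13 in the panobinostat arrays (-2.73 ± 0.22). TNFRSF10B, the TRAIL receptor DR5, was lower at -1.90 ± 0.15. Without OTX015 replicate 2 the p53 higher count was 3.

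**Figure D4:**
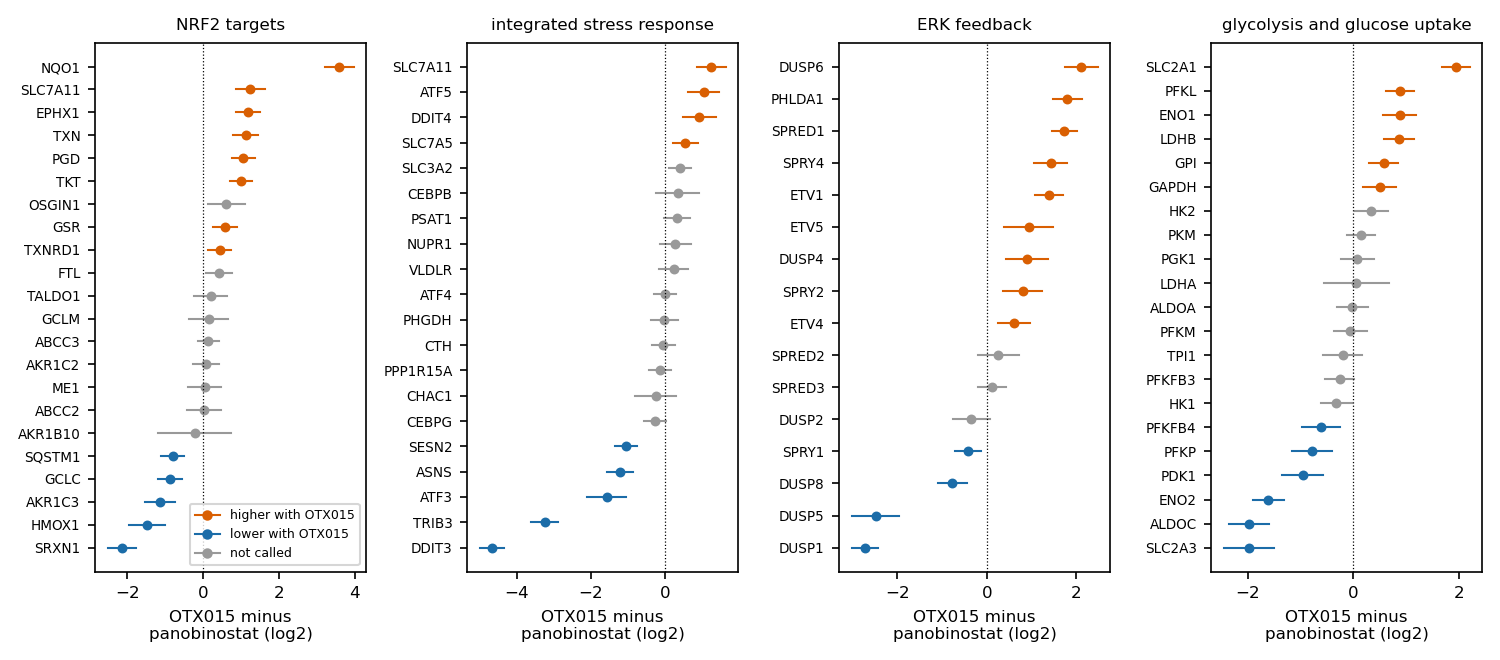
OTX015 minus panobinostat (log2) with 95% intervals for every measured member of 4 lists: NRF2 targets, integrated stress response, ERK feedback, and glycolysis with glucose uptake. Each panel holds intervals wholly right and wholly left of 0, with NQO1 and SRXN1, SLC7A11 and DDIT3, DUSP6 and DUSP1, and SLC2A1 and SLC2A3 at the ends.

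Apoptosis and protein quality genes showed smaller and mixed differences. Of 16 BCL2 family genes 4 were called higher and 2 lower, and the higher count was 2 without OTX015 replicate 1. BID, which links death receptors to mitochondria, read 6.97 and 6.47 in the OTX015 arrays and 4.75 and 4.43 in the panobinostat arrays (2.13 ± 0.19), and the effector gene BAK1 differed by -1.09 ± 0.13. MCL1 at -0.15 (95% interval -0.47 to 0.17), BCL2L1 at 0.35 (0.04 to 0.67) and PMAIP1 at 0.61 (0.12 to 1.11) were not called. Among 30 heat shock and chaperone genes 8 were called higher, led by DNAJB4 at 1.30 ± 0.17, and 5 lower. HSPA1A, an inducible HSP70 gene with a near-identical copy whose signal was not separated here, averaged under background with OTX015 and was at least 3.53-fold lower. Also lower were DNAJC12 at -1.77 ± 0.14 and DNAJB1 at -1.16 ± 0.14. Without OTX015 replicate 1, OTX015 replicate 2 or panobinostat replicate 2 the chaperone higher count was 5. Of 26 proteasome subunit genes 9 were called higher and 1 lower (34.6% and 3.85%), with PSMB5, the catalytic subunit that bortezomib binds, at 1.04 ± 0.17. That count was 4 without OTX015 replicate 1 and 5 without either panobinostat array, the lower count ran between 0 with median centring and 4 with quantile normalization, and the median of the list changed sign between alternatives.

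Glucose transporter genes crossed. SLC2A1, which encodes GLUT1, read 9.02 and 9.02 in the OTX015 arrays, 7.07 and 7.09 in the panobinostat arrays and 8.18 and 8.16 in the DMSO arrays (OTX015 minus panobinostat 1.94 ± 0.12). SLC2A3, which encodes the neuronal transporter GLUT3, read 6.202 and 5.94 in the OTX015 arrays, 8.11 and 7.99 in the panobinostat arrays and 4.22 and 3.59 in the DMSO arrays (-1.98 ± 0.21). The drug order was thus opposite for the 2 transporters, with nearly equal size. The glycolytic enzyme genes ENO2, also in the neuronal list, and ALDOC, also in the astrocyte list, were lower at -1.61 ± 0.13 and -1.98 ± 0.17. Over the glycolysis list, 6 of 21 genes were called in each direction. HK2 was not called, at 0.34 with a 95% interval of 0.02 to 0.65.

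Of 28 sterol and fatty acid genes 10 were called higher and 7 lower (35.7% and 25%, beside 13.3% and 16% of all genes, median 0.25). FASN, fatty acid synthase, read 8.81 and 8.44 in the OTX015 arrays and 5.91 and 5.67 in the panobinostat arrays (2.83 ± 0.16, 7.13-fold). The elongase gene ELOVL6 differed by 2.28 ± 0.13 and the desaturase gene FADS2 by 2.23 ± 0.14. STARD4, a sterol carrier gene, was lower at -1.33 ± 0.14, and so, named after their values were seen, were the sterol-synthesis gene HMGCS1 at -0.92 and INSIG1, which retains SREBP in the endoplasmic reticulum, at -1.32.

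In energy metabolism most genes were not called, as was so among all genes, of which 29.3% were called. Of 47 oxidative phosphorylation genes 6 were called in each direction (12.8% and 12.8%, beside 13.3% higher and 16% lower of all genes), all of them by about 2-fold or less, and the lower count was 3 without OTX015 replicate 2 or without panobinostat replicate 1. With an intensity trend 9 were called higher and 8 lower, and with median centring 9 and 6. PPARGC1A, a coactivator of mitochondrial biogenesis, was at least 4.30-fold lower in OTX015, where it was under background. Of 33 cytosolic ribosomal protein genes 3 were called higher and 0 lower by limma (9.09%, beside 13.3% of all genes), and each of the 3, RPL22, RPL28 and RPL14, lost its call in at least 1 alternative. Among 21 serine, folate and one-carbon genes 3 were called higher, TYMS, AHCY at 1.11 ± 0.18 and CBS at 0.97 ± 0.13, and 1 lower, the folate receptor gene FOLR1 at -1.02 ± 0.16. That higher count was 5 with median centring and with an intensity trend.

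Of 36 autophagy and lysosome genes, 19 were called lower with OTX015, 1 higher and 16 not at all (52.8% lower and 2.78% higher, beside 16% and 13.3% of all genes, median -0.47). The lower count was 13 or 14 with median centring or without any 1 of the 4 arrays. CTSB, which encodes the lysosomal protease cathepsin B, read 9.55 and 9.66 in the OTX015 arrays and 11.56 and 11.56 in the panobinostat arrays (-1.95 ± 0.13). WIPI1, a phosphoinositide-binding autophagosome protein gene, differed by -1.40 ± 0.15, and ATG16L1 and ATG2A, which act in autophagosome formation, by -1.20 ± 0.19 and -1.20 ± 0.13.

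Of 13 MHC class II genes 7 were called lower and 0 higher (53.8%, median -0.71). HLA-DPA1 read 3.41 and 3.57 in the OTX015 arrays, 6.397 and 6.56 in the panobinostat arrays and 3.31 and 3.34 in the DMSO arrays (OTX015 minus panobinostat -2.99 ± 0.13). HLA-DMA, a peptide-loading chaperone gene, differed by -2.74 ± 0.14, and HLA-DRA was at least 3.45-fold lower. CIITA, the coactivator that drives the class, was not called, at -0.07, and was named after its value was seen. It read 3.03 and 3.09 in the OTX015 arrays and 3.01 and 3.25 in the panobinostat arrays. That is about the background of 3.03, so whether CIITA changed cannot be read from it. CD74, HLA-DRB1, HLA-DQA1, HLA-DOB and CTSS, also not called, averaged under background with both drugs. In class I presentation 4 of 16 genes were called lower, HLA-B at -1.57 ± 0.13 first, and 3 higher, led by TAPBP, the peptide-loading protein tapasin, at 1.25 ± 0.13. Of 27 interferon response genes 6 were called lower, with IFI6 at -1.97 ± 0.22 and BST2, a tethering factor of enveloped viruses under background with OTX015, and 3 higher (22.2% and 11.1%, beside 16% and 13.3% of all genes). That higher count was 6 with median centring and 0 to 2 when single arrays were left out.

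Markers of other cell types were mostly under background, with exceptions that bear on the values above. Of 17 microglia and macrophage markers 9 were under background on every array of the series, the leukocyte markers PTPRC and AIF1 among them, while ITGAX, CD68 and CSF1R were called lower in OTX015 and 2 dim markers, TREM2 and P2RY12, higher. CD68, also a lysosomal protein gene, read 6.34 and 6.37 in the OTX015 arrays and 9.61 and 9.32 in the panobinostat arrays. The summed linear level of the list was 180.0 and 183.4 in the OTX015 arrays and 1172.2 and 1055.9 in the panobinostat arrays. Its median log2 level was 2.68 and 2.56 in the OTX015 arrays and 2.54 and 2.51 in the panobinostat arrays. Endothelial and lymphocyte markers had 0 called of 14 and 0 of 11 in the limma fit. The pericyte and fibroblast list summed to 1447.2 and 1302.4 in the OTX015 arrays and 551.1 and 566.6 in the panobinostat arrays. The median of that list was 2.44 and 2.61 in the OTX015 arrays and 2.58 and 2.80 in the panobinostat arrays. Within it THY1, also a neural surface antigen, was higher at 1.65 ± 0.13 and COL1A1 lower at -1.81 ± 0.20. The part of other cells in the MHC class II, ITGAX and matrix results was not tested.

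Matrix, adhesion and cytoskeletal genes differed gene by gene. COL6A3, a collagen VI chain gene, read 3.09 and 2.96 in the OTX015 arrays and 6.80 and 6.71 in the panobinostat arrays, at least 13.3-fold lower. Of 33 collagen and matrix genes 9 were called lower and 4 higher, with TIMP3 at -2.03 ± 0.20 and MMP16 at 1.86 ± 0.17. TIMP1, a metalloproteinase inhibitor gene, read 8.30 and 8.40 in the OTX015 arrays and 11.44 and 11.57 in the panobinostat arrays (-3.15 ± 0.22), and it led the 7 of 24 mesenchymal glioblastoma genes called lower, with 0 called higher by limma as deposited and 2 higher with median centring or quantile normalization. Also in that list, LGALS1 (galectin-1) differed by -2.76 ± 0.16 and MET, a receptor tyrosine kinase gene, was at least 4.53-fold lower. The mesenchymal lower count was 4 without OTX015 replicate 1 or without panobinostat replicate 1. Of 18 receptor tyrosine kinase genes of glioma 4 were called in each direction, against 2 or 3 in each direction when single arrays were left out.

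Integrin genes went both ways: 9 of 25 integrin and laminin genes were called lower and 6 higher. ITGA5, the fibronectin receptor subunit, read 3.27 and 3.46 in the OTX015 arrays and 6.37 and 6.11 in the panobinostat arrays (-2.87 ± 0.19), and LAMA4, a laminin chain gene, differed by 2.30 ± 0.15. ITGA6, a laminin receptor subunit that marks glioma stem cells, was lower at -1.48 ± 0.16. Of 15 tubulin genes 8 were called higher and 1 lower, with TUBB at 1.25 ± 0.12 and TUBA4A at -1.78 ± 0.21. Leaving out single arrays gave 4 or 5 tubulin genes higher.

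The gene next to PAEP in size of difference was not a protein-coding one and was named after its value was seen. MIR7-3HG, the host RNA of the microRNA gene MIR7-3, read 3.49 and 3.62 in the OTX015 arrays, 10.49 and 10.61 in the panobinostat arrays and 2.98 and 3.28 in the DMSO arrays. The drugs differed by -7.002 ± 0.14, 128-fold, with no overlap (adjusted p = 1.50e-07). The MIR7-3 hairpin, which RefSeq places within MIR7-3HG, had its own probe set, with 1.33 and 1.59 in the OTX015 arrays and 4.97 and 5.31 in the panobinostat arrays, at least 4.31-fold lower in OTX015. MIR7-1, the gene of the same mature microRNA within HNRNPK, averaged under background with both drugs, and MIR7-2 did as well, so no fold is given. MIR616, whose hairpin lies within DDIT3, read 2.46 and 2.24 in the OTX015 arrays and 6.34 and 6.75 in the panobinostat arrays, at least 11.4-fold lower in OTX015. A hairpin probe set on a total RNA array can read the host or precursor transcript, so these values do not measure the mature microRNAs. The mature sequences of these loci are shown from RefSeq (GRCh38.p14) with the seed, bases 2 to 8, in capitals.
hsa-miR-7-5p: uGGAAGACuagugauuuuguuguu
hsa-miR-616-5p: aCUCAAAAcccuucagugacuu
hsa-miR-616-3p: aGUCAUUGgaggguuugagcag
The miR-7-5p line is the same for MIR7-3 (chr19:4770700-4770723, plus strand) and MIR7-1 (chr9:83969811-83969834, minus strand), and the 3 seeds differ. The miR-616 arms lie at chr12:57519223-57519244 (5p) and chr12:57519183-57519204 (3p), on the minus strand.

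Some genes stood far from DMSO under both drugs and nearly level between them. The rule took genes at least 2 log2 units from the DMSO mean on the same side under both drugs, and 73 genes met it, of which 32 were called higher in OTX015, 10 lower and 31 not called. TIMP4, a metalloproteinase inhibitor gene, read 4.98 and 5.34 in the OTX015 arrays, 5.26 and 5.05 in the panobinostat arrays and 7.63 and 7.34 in the DMSO arrays, and the 95% interval of OTX015 minus panobinostat was -0.43 to 0.43. ITGB3, an integrin subunit gene, read 5.78 and 5.95 in the OTX015 arrays, 5.89 and 5.69 in the panobinostat arrays and 3.55 and 3.76 in the DMSO arrays (-0.27 to 0.41). ZHX2, KIF26B and GPX8 were under background with both drugs, and AGMO was at background. The near-equality of these genes was what chose them and is given as a description.

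Other genes had DMSO between the drugs, and they too were chosen for that order. SOX21 read 8.27 and 8.15 in the OTX015 arrays, 3.77 and 4.01 in the panobinostat arrays and 7.16 and 6.69 in the DMSO arrays. PTPRD, a receptor phosphatase gene, read 6.78 and 6.71 in the OTX015 arrays, 3.77 and 3.76 in the panobinostat arrays and 5.23 and 4.87 in the DMSO arrays. GALNT13, a glycosyltransferase gene, had the same order, at 6.43 and 6.47 in the OTX015 arrays, 3.70 and 4.02 in the panobinostat arrays and 5.32 and 5.12 in the DMSO arrays. In the opposite order stood ENPP2, TRIB3 and CNTN1, which encodes the neural adhesion protein contactin-1. CNTN1 read 4.61 and 5.51 in the OTX015 arrays, 7.75 and 7.81 in the panobinostat arrays and 6.34 and 6.56 in the DMSO arrays. OLFM2 and TNFAIP8L1 had that order too, with OTX015 minus panobinostat at -2.77 ± 0.26 for OLFM2 and at least 5.20-fold lower for TNFAIP8L1.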

How the data were processed

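Total RNA of NCH644 cells was biotin-labelled and measured on single-colour expression arrays, per the labels' protocols. The deposited log2 values come from the RMA method, and the submitters' processing notes list affy 1.36.1 and R 2.15.1. The array model is not given in the sources used here. RMA equalises array distributions, so a change in total RNA per cell cannot be seen in them. Of 23786 probe sets, 22458 had exactly 1 gene symbol in the platform annotation, and 1328 had none and stayed unnamed.

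All 8 arrays entered 1 limma fit (R 4.3.3, limma 3.58.1) that had a mean for each of 4 groups and nothing else (4 residual and 4.41 prior degrees of freedom), and OTX015 minus panobinostat was tested two-sided with Benjamini-Hochberg adjustment over all 22458 genes and no filter. The number of arrays limits the precision. Groups and replicate numbers came from the sample titles. The code was tested on simulated data.

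Named genes were the 12 largest called differences on each side (leaving out small RNA, LINC, antisense and uncharacterised symbols and the multicopy USP17L and RFPL4 families, among them RFPL4AL1, USP17L5 and LINC00659, which had differences as large), up to 4 called members of each of 47 lists, a fixed set that includes MYC, HEXIM1 and SOX2, and the 6 nearest and 6 most opposed genes relative to DMSO on each side. The 12 on each side also had to have arrays that did not overlap between the drugs and a brighter drug mean above background. The comparison, the lists and the rule were chosen with earlier results of these data known. Alternatives were array weights, median centring, the replicate number as a block, a filter on the dimmest 25% of genes, quantile normalization, use of all probe sets, use of the 4 single-drug arrays alone, robust moderation with an intensity trend, a 0.01 threshold, a test against 2-fold, and leaving out each array. Promoter and microRNA sequences are from RefSeq and were matched by gene identifier. List members with no matching symbol were not analysed here.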

Additional observations from a re-analysis of the deposited data

How the results depend on the processing

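With adjusted p under 0.01, 4272 genes were called (1943 higher and 2329 lower in OTX015), and 806 (372 higher and 434 lower) passed limma's treat test against a 2-fold change. Fewer calls follow from these stricter rules. Leaving out 1 of the 4 arrays gave 4695 to 4803 calls, 2144 to 2220 higher and 2533 to 2615 lower, with the lone array assumed to vary like the other groups. Of 194 called genes named by the rule, 14 lost the call in at least 1 of 12 alternatives and 0 of the 207 named genes reversed. The medians of 13 of 47 lists changed sign in at least 1 alternative. They were the astrocyte, CDK inhibitor, glycolysis, integrated stress response and mesenchymal glioblastoma lists. The MHC class I, oxidative phosphorylation, p53, proteasome and other-cell-type marker lists were the rest. For those lists the counts of calls on each side are given, and they set no direction for the list as a whole.

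Replicates with the same number deviated together only weakly. The correlation of deviations was 0.086 between OTX015 and panobinostat and 0.047 to 0.118 over all pairs of groups, all positive. On the second principal component of the OTX015 and panobinostat arrays, with 7.4% of the variance, replicate 1 lay at 16.87 and 13.69. Replicate 2 lay at -16.71 and -13.85, so same-numbered arrays of both drugs lay on the same side. What same-numbered arrays have in common was not tested. With the replicate block 6706 genes were called, 3060 higher and 3646 lower, and 6376 of the 6582 calls were shared. Genes under the background of 3.03 limit what can be read: 1054 called genes had a drug under it.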

Other observations

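Ligands of the immune receptor NKG2D, which mark stressed cells for natural killer cells, formed a group outside the lists and were chosen after their values were seen. Of 7 measured, 5 were called lower in OTX015 and 0 higher, beside 16% and 13.3% of all genes. ULBP1 read 2.71 and 2.97 in the OTX015 arrays, 7.196 and 7.26 in the panobinostat arrays and 4.39 and 3.92 in the DMSO arrays, at least 18.4-fold lower with OTX015 than with panobinostat (adjusted p = 4.71e-06 from limma). ULBP3 differed by -2.26 ± 0.14, MICA by -2.11 ± 0.23, ULBP2 by -2.03 ± 0.22 and MICB by -1.06 ± 0.15 (SE, n = 2 arrays in each group). The remaining members, RAET1E and RAET1L, averaged under background with both drugs.

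Long non-coding RNAs, also chosen after their values were seen, were called at lower rates than protein-coding genes in each direction. Of 2234, 4.79% were called higher and 10.2% lower, against 15.7% and 18.5% of 17649 protein-coding genes. Their median level of 2.36 over all arrays was under background, against 4.69 for protein-coding genes, and its part in the difference was not tested. NEAT1, the scaffold RNA of nuclear paraspeckles, read 4.01 and 4.403 in the OTX015 arrays, 8.03 and 8.50 in the panobinostat arrays and 2.66 and 1.99 in the DMSO arrays (OTX015 minus panobinostat -4.06 ± 0.29, 16.7-fold). Its genomic neighbour MALAT1 was not called, at -0.19 with a 95% interval of -0.53 to 0.16. MIR9-2HG, a host RNA of the neural microRNA miR-9, read 7.06 and 7.21 in the OTX015 arrays and 4.05 and 4.22 in the panobinostat arrays (3.002 ± 0.13). Beside SSX1, its family members SSX3, SSX5 and SSX7 averaged under background with both drugs, so no fold is given for them.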
